A study of Mus musculus with 8 samples.

Results

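Mitochondria fuse and divide continually, and damaged ones can be taken up by autophagosomes, a process called mitophagy. The 10 genes described here encode the machinery of both processes. Mfn1 and Mfn2 (mitofusins) fuse outer membranes and Opa1 fuses inner membranes and shapes cristae. Dnm1l encodes DRP1, the GTPase that constricts mitochondria, and Fis1 and Mff encode outer-membrane proteins linked to its recruitment. Pink1 is a kinase that accumulates on depolarised mitochondria and phosphorylates ubiquitin there, whereas Bnip3, Bnip3l (NIX) and Fundc1 are outer-membrane receptors that bind LC3-family proteins directly. The genes were taken by name from the 48795 genes of the count table, and all 10 were found and passed the filter on low counts that left 14178 genes. In mouse blood formation Bnip3l is known for clearing mitochondria from reticulocytes, and Mfn2 for its part in stem cells with lymphoid potential.

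The sorted cells were LSK (no lineage markers, but Sca-1 and c-Kit on the surface), a gate on marrow that enriches for stem and multipotent progenitor cells. There were 4 libraries from mice labelled SIRT1 deleted (cre+) and 4 from mice labelled control (cre-). Both groups were of the C57BL/6 strain and had been induced for chronic myeloid leukaemia (CML) for 10 weeks before sorting. SIRT1 is an NAD-dependent deacetylase. The labels name neither the promoter of the Cre nor the ages of the animals.

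Gene counts totalled 24648721 to 34280925 in Sirt1-deleted libraries and 18252562 to 28883834 in control libraries, and detected genes numbered 16154 to 20342 and 15316 to 19917 in the same order. Sirt1 itself had 441, 391, 218 and 242 counts in Sirt1-deleted libraries 1 to 4 and 386, 498, 147 and 202 in controls 1 to 4 (log2 fold change -0.26, edgeR adjusted p = 0.797), so a count over the whole gene does not separate the labels. Of 10 markers of LSK cells, 9 had counts in every library. Their summed level was 1337 to 1672 CPM (counts scaled to a common library size) in Sirt1-deleted libraries and 919 to 1373 CPM in controls. The genes of the gate itself did not overlap between the genotypes, with Kit at 108 to 158 CPM in Sirt1-deleted libraries and 32.4 to 44.0 CPM in controls, and Ly6a (Sca-1) at 119 to 224 and 232 to 780 CPM. Markers of erythroid cells summed to 215 to 374 CPM in Sirt1-deleted libraries and 98.3 to 220 CPM in controls. Car2, which other marrow cells also express, made up 153 to 363 CPM of this in Sirt1-deleted libraries and 84.5 to 122 CPM in controls. The globin gene Hbb-bt was at 15.1 CPM in Sirt1-deleted 1 and 41.4 CPM in control 1, and at 1.75 to 2.83 CPM in the other Sirt1-deleted libraries and 4.64 to 10.3 CPM in the other controls. Car1, Slc4a1 and Ermap were each at 0 in 6 of the 8. Granulocyte-monocyte markers summed to 6974 to 13268 CPM in Sirt1-deleted libraries and 10411 to 23388 CPM in controls. Among them Ms4a3 (223 to 323 against 558 to 743 CPM, edgeR adjusted p = 0.0298), Ctsg (971 to 1467 against 1622 to 2505 CPM) and Fcgr3 (43.3 to 75.6 against 106 to 148 CPM) did not overlap. Elane, Mpo and Prtn3 overlapped, and Csf1r leaned the other way (103 to 211 against 48.0 to 129 CPM). Neutrophil markers summed to 1091 to 2404 CPM in Sirt1-deleted libraries and 1716 to 4889 CPM in controls. B and plasma cell markers summed to 640 to 5128 and 808 to 2267 CPM, mast cell and basophil markers to 166 to 533 and 483 to 2626 CPM, and megakaryocyte markers to 127 to 255 and 71.2 to 286 CPM. The part of these differences in the values given here was not tested.

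Promoter sequence is given for 3 of the genes, Fis1 and Bnip3 because they had the most negative fold changes, and Opa1 because it held the rarest motif that was matched. Each is the 250 bases before the RefSeq transcription start in GRCm38.p6, 5′ to 3′ on the gene's strand. The windows are chr5:136953025-136953274 (plus strand), chr7:138909507-138909756 (minus strand) and chr16:29579084-29579333 (plus strand). Capitals mark matches, on either strand, to 3 motifs described after them.
Fis1: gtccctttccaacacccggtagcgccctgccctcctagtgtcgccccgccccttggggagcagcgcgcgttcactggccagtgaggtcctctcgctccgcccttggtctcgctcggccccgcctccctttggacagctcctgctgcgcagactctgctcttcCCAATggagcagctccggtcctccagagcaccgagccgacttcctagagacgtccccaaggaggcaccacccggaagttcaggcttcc
Bnip3: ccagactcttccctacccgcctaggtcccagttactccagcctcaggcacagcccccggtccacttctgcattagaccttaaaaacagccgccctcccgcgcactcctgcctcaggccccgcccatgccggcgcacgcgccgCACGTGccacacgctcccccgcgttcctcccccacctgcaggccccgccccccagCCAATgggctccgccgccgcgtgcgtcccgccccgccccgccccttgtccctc
Opa1: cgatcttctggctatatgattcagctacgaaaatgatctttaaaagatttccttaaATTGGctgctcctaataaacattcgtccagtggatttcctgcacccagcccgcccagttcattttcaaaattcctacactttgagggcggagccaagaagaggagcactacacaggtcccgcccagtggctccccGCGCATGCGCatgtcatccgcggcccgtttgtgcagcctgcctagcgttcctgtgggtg
The Fis1 window held CCAAT, the letters bound by NF-Y, with its first base at -88 from the start. Such a match occurred in 33.8% of the 32851 windows of this length in the table and in 6 of the 9 windows of the genes described here (Bnip3l had none in the table). The Fundc1 window, with no match to any motif searched for, ends at a RefSeq start 318 bases from the gene's start in GENCODE M21. It lies wholly inside the gene as annotated there, so it does not cover sequence before that start. The Bnip3 window also held CCAAT, at -53, and the Opa1 window held it on the opposite strand, at -194. The Bnip3 window held the palindrome CACGTG at -108, present in 6.02% of all windows. It contains ACGTG, a form of the core letters bound by hypoxia-inducible factors (HIF), on both strands. ACGTG occurred in 16.6% of all windows and in no other of the 9. Other forms of this core, such as GCGTG, were not searched for. The Opa1 window held the palindrome bound by NRF1, which reads GCGCA followed by its reverse complement, at -59. It occurred in 1 of the 9 windows and in 0.782% of all windows of this length. GTAAACA, the letters bound by FOXO factors, occurred in 3.17% of all windows and in 0 of the 9. These matches describe letters only, as binding was not measured.

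Fis1 was the one gene of the 10 whose levels did not overlap between the genotypes, and no gene of the 10 was called by the main test. Fis1 was lower in all 4 Sirt1-deleted libraries, at about 0.708 times its control level. Bnip3 had a fold change of like size at far lower counts and its groups overlapped. Pink1 and Fundc1 had the highest fold changes of the 10, 1.33 and 1.23, with overlapping groups. Mff, Mfn1, Mfn2 and Bnip3l had log2 fold changes between -0.07 and 0.13. Genes were compared with the edgeR quasi-likelihood test over all 14178 genes tested, and called at a Benjamini-Hochberg adjusted p under 0.05. By that rule 0 of the 10 were called, where 0.0846% of all genes were (12 genes). At an unadjusted p under 0.05 there was 1 of the 10, on the lower side, against 16.2% of all genes (8.6% lower and 7.55% higher). DESeq2 and limma-voom each called 1 of the 10, which was Fis1, where they called 11.3% and 8.03% of the genes they tested. Groups did not overlap for 1 of the 10, again on the lower side, against 13.1% of all genes (6.44% lower and 6.64% higher). The median log2 fold change was -0.03 over the 10, with 4 positive and 6 negative values, and 0.06 over all genes tested.

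**Figure D1:**
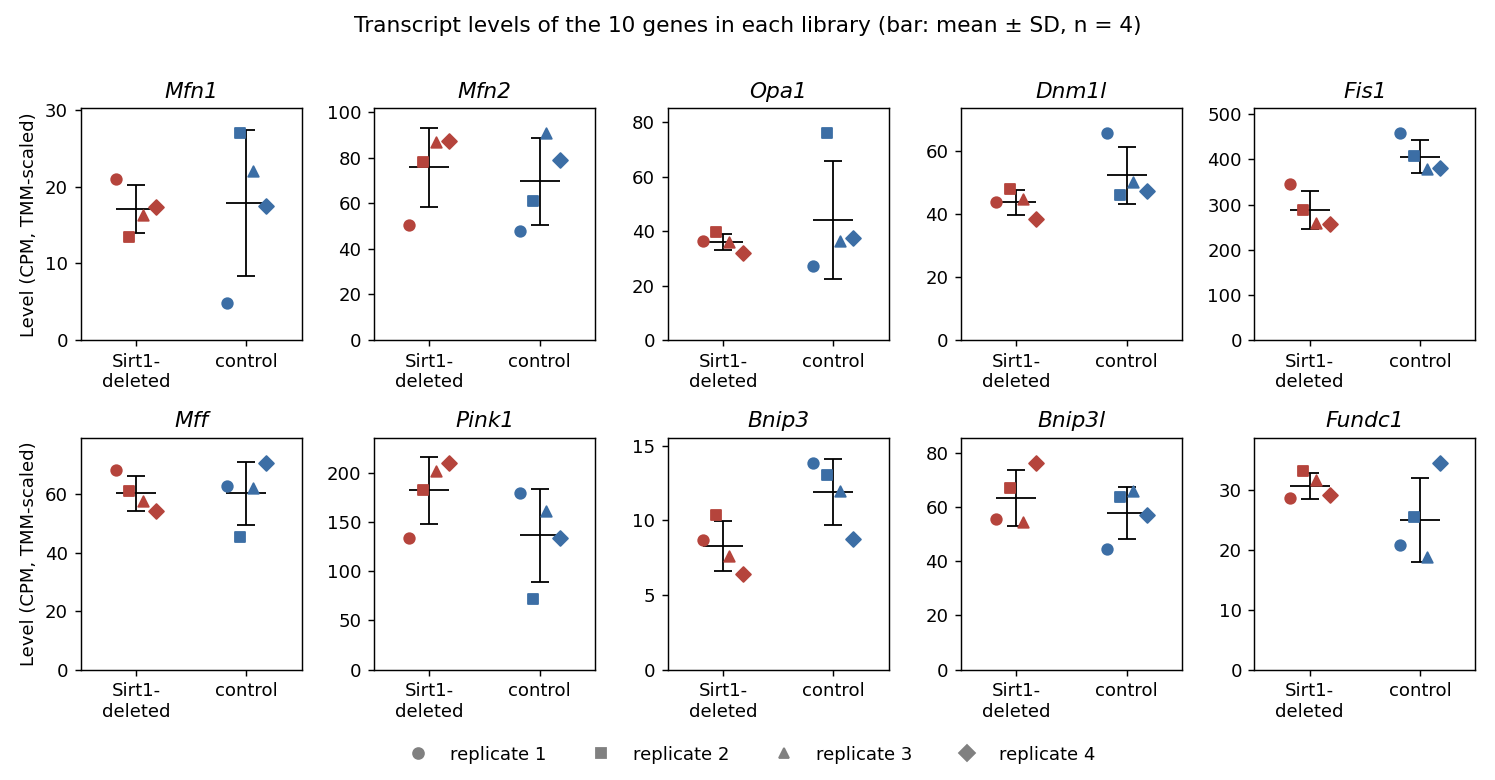
Levels of the 10 genes in CPM (vertical axes from 0) in 4 Sirt1-deleted libraries (red, left) and 4 control libraries (blue, right), with the marker shape giving the replicate and bars the mean ± SD. The groups separate for Fis1 (257 to 346 against 378 to 458 CPM) and overlap for the other 9 genes.

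Of the fusion genes, Mfn1 (ENSMUSG00000027668.13, chromosome 3, 32529465 to 32579239, GRCm38) had 21.1, 13.4, 16.4 and 17.4 CPM in Sirt1-deleted libraries 1 to 4 and 4.86, 27.0, 22.1 and 17.5 CPM in controls 1 to 4. Control 1 had the lowest and control 2 the highest value of the 8, so the Sirt1-deleted values lay inside the control range. The log2 fold change was -0.07 ± 0.46 (SE, edgeR adjusted p = 0.960), with a 95% interval of -1.11 to 0.98. It was -0.42 without control 1 and 0.17 without control 2.

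Mfn2 (ENSMUSG00000029020.13, chromosome 4, 147873599 to 147904704), whose protein also tethers mitochondria to the endoplasmic reticulum, had 50.6, 78.1, 87.1 and 87.3 CPM in Sirt1-deleted libraries and 48.0, 61.0, 90.8 and 79.2 CPM in controls. Replicate 1 was the lowest library of each genotype. The log2 fold change was 0.12 ± 0.25 (SE, edgeR adjusted p = 0.856), within -0.45 to 0.69. Per kilobase of merged exons, the ratio of Mfn2 to Mfn1 was 2.83 to 6.84 in Sirt1-deleted libraries and 2.66 to 11.6 in controls, the last in control 1.

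Opa1 (ENSMUSG00000038084.16, chromosome 16, 29579334 to 29654884) had 36.5, 39.6, 36.0 and 32.1 CPM in Sirt1-deleted libraries and 27.1, 76.1, 36.3 and 37.4 CPM in controls. Control 2 stood at 76.1 CPM (2112 counts), and all other libraries lay between 27.1 and 39.6 CPM. The coefficient of variation was 8.52% among Sirt1-deleted libraries and 49.1% among controls. The log2 fold change was -0.29 ± 0.31 (SE, edgeR adjusted p = 0.696) and turned to 0.063 without control 2.

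Of the fission genes, Dnm1l (ENSMUSG00000022789.14, chromosome 16, 16312230 to 16358959) had 43.9, 48.1, 44.7 and 38.4 CPM in Sirt1-deleted libraries and 65.7, 46.2, 50.3 and 47.3 CPM in controls. Control 1 was the highest, and Sirt1-deleted 2 lay above controls 2 and 4, so the groups overlapped. Dnm1l had a log2 difference of -0.26 ± 0.17 (SE, edgeR adjusted p = 0.504), with a 95% interval of -0.64 to 0.12. The ratio of Opa1 to Dnm1l per kilobase of merged exons ran from 0.532 to 0.552 in Sirt1-deleted libraries and from 0.273 to 1.09 in controls. The low end was control 1 and the high end control 2.

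Fis1 (ENSMUSG00000019054.13, chromosome 5, 136953275 to 136966234), whose product in human leukaemia stem cells has been tied to mitophagy, had 8962, 10885, 6357 and 8361 counts in Sirt1-deleted libraries 1 to 4 and 10655, 11328, 6831 and 8030 counts in controls 1 to 4. Scaled to library size these were 346, 288, 259 and 257 CPM in Sirt1-deleted libraries and 458, 408, 378 and 380 CPM in controls. The lowest control stood above the highest Sirt1-deleted library. Sirt1-deleted libraries averaged 288 ± 41.5 CPM and controls 406 ± 37.2 CPM (SD, n = 4 each). On the log2 scale the difference was -0.50 ± 0.13 (SE), with a 95% interval of -0.78 to -0.21 and an edgeR adjusted p of 0.129. This was the smallest p of the 10 and ranked 383 among all genes tested. Fis1 was called with DESeq2 (adjusted p = 0.00912), with limma-voom (adjusted p = 0.0141) and with edgeR without Sirt1-deleted 1 (log2 fold change -0.64, adjusted p = 0.0340), where 3.05% of genes were called. It was also called by edgeR when control 2 and Sirt1-deleted 1, which had the fewest genes detected, were both left out (adjusted p = 0.0482), where 2.13% of genes were called.

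Alignments set aside as not unique moved with Fis1. They made up 30.9, 28.8, 24.3 and 24.1% of the table's total in Sirt1-deleted libraries 1 to 4, the same descending order as their Fis1 levels, and 32.0, 32.3, 30.1 and 30.6% in controls 1 to 4. Sirt1-deleted 1 had more such alignments than controls 3 and 4 and less Fis1 than either. With this share as a covariate, an alternative chosen after seeing the data, the Fis1 log2 fold change was -0.25 (edgeR adjusted p = 0.606). Sirt1-deleted 2, 3 and 4 had a lower share than every control, so this fit cannot fully tell the share from genotype. After trends with gene length and GC content were taken out per library it was -0.32 (edgeR adjusted p = 0.259). The summed level of 5 markers of T and NK cells, all with counts in every library, was 456 to 515 CPM in Sirt1-deleted libraries and 609 to 719 CPM in controls. Most of it was Nkg7, at 406 to 491 CPM in Sirt1-deleted libraries and 503 to 614 CPM in controls. Ccl5 was at 2.89 to 12.3 CPM in Sirt1-deleted libraries and 23.1 to 59.9 CPM in controls, also without overlap. The T cell gene Cd3e was at 0.477 to 26.6 CPM in Sirt1-deleted libraries and at 29.2 to 39.6 CPM in controls. Cd3g and Cd3d overlapped between the genotypes. Sirt1-deleted 2 had the lowest Cd3e, Cd3g and Cd3d of its group but the highest Nkg7 (491 CPM), so the sum did not follow the T cell genes. The part of these markers in the Fis1 difference was not tested. In bulk RNA fewer cells of a type and less RNA per cell cannot be told apart.

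**Figure D2:**
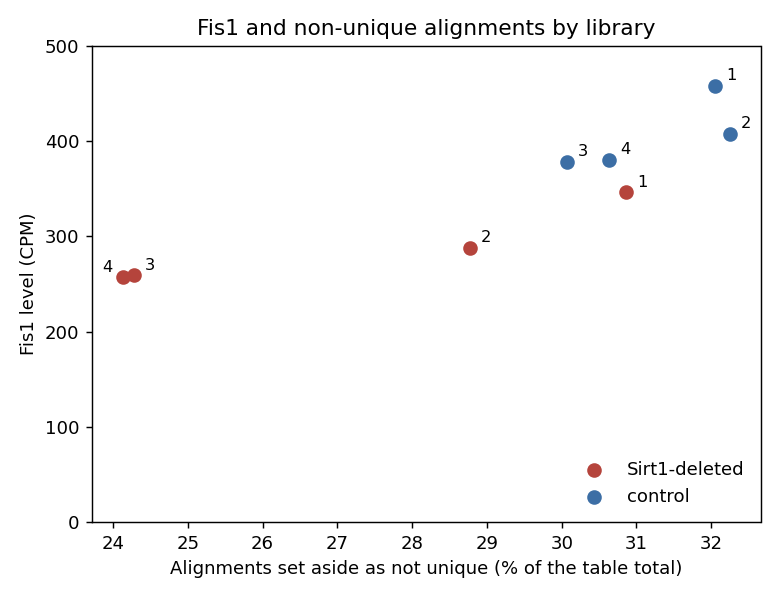
Fis1 level in CPM (vertical axis, from 0) against the share of alignments set aside as not unique (horizontal axis, percent of the table total) for the 4 Sirt1-deleted (red) and 4 control (blue) libraries, numbered by replicate. Sirt1-deleted 3 and 4, with the lowest shares (24.3 and 24.1%), have the lowest Fis1 levels, and controls 1 and 2, with the highest shares (32.0 and 32.3%), have the highest.

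Mff (ENSMUSG00000026150.14, chromosome 1, 82724890 to 82752394), an outer-membrane receptor for DRP1, had 68.2, 60.9, 57.6 and 54.0 CPM in Sirt1-deleted libraries and 62.9, 45.3, 62.1 and 70.7 CPM in controls. Its group means were nearly equal, 60.2 ± 6.05 and 60.2 ± 10.7 CPM (SD, n = 4 each). The log2 fold change was -0.0016 ± 0.17 (SE, edgeR adjusted p = 0.998), with a 95% interval of -0.39 to 0.39. The ratio of Fis1 to Mff per kilobase of merged exons was 25.6 to 28.9 in Sirt1-deleted libraries and 30.6 to 51.3 in controls. These did not overlap, but Fis1 alone already separated the groups in the same direction.

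Of the mitophagy genes, Pink1 (ENSMUSG00000028756.12, chromosome 4, 138313409 to 138326307) had 134, 183, 202 and 211 CPM in Sirt1-deleted libraries and 180, 71.8, 162 and 134 CPM in controls. Sirt1-deleted 2, 3 and 4 lay above every control, and Sirt1-deleted 1 lay below 3 of the 4 (133.8 CPM, against 134.4 CPM in control 4). For Pink1 the log2 fold change was 0.41 ± 0.27 (SE, edgeR adjusted p = 0.520), with a 95% interval of -0.21 to 1.04. Its value was 0.16 without control 2, the library with the lowest Pink1, and 0.02 with the share of non-unique alignments as a covariate.

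Bnip3 (ENSMUSG00000078566.8, chromosome 7, 138890836 to 138909519), a known HIF target, had 225, 390, 187 and 207 counts in Sirt1-deleted libraries and 322, 361, 216 and 185 counts in controls. Scaled to library size, Bnip3 ran from 6.37 to 10.3 CPM in Sirt1-deleted libraries and from 8.76 to 13.8 CPM in controls, highest in Sirt1-deleted 2 and in control 1. Control 4 was the one control below a Sirt1-deleted library, Sirt1-deleted 2. The log2 fold change was -0.53 ± 0.29 (SE, edgeR adjusted p = 0.428), with a 95% interval of -1.20 to 0.14. It was -0.21 with the share of non-unique alignments as a covariate and -0.29 after trends with gene length and GC content were taken out.

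Bnip3l (ENSMUSG00000022051.15, chromosome 14, 66985239 to 67008877) had 55.4, 67.1, 54.5 and 76.3 CPM in Sirt1-deleted libraries and 44.6, 63.7, 65.8 and 57.1 CPM in controls. Sirt1-deleted 4 was the highest and control 1 the lowest, with the other 6 libraries mixed. Bnip3l had a log2 difference of 0.13 ± 0.18 (SE, edgeR adjusted p = 0.777). The ratio of Bnip3l to Bnip3 per kilobase of merged exons was 3.74, 3.81, 4.20 and 7.03 in Sirt1-deleted libraries and 1.89, 2.87, 3.23 and 3.83 in controls, so control 4 lay just above Sirt1-deleted 1 and 2. A pseudogene of Bnip3l is annotated, so reads shared with it may be missing from the count.

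Fundc1 (ENSMUSG00000025040.13, chromosome X, 17556564 to 17572325) had 28.6, 33.2, 31.5 and 29.1 CPM in Sirt1-deleted libraries and 20.8, 25.5, 18.8 and 34.5 CPM in controls. All Sirt1-deleted libraries lay above controls 1 to 3 and below control 4. Fundc1 had a log2 difference of 0.30 ± 0.22 (SE, edgeR adjusted p = 0.568), and 0.50 without control 4. Its coefficient of variation was 6.94% among Sirt1-deleted libraries, the lowest of the 10 genes in that group, and 28.0% among controls.

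**Figure D3:**
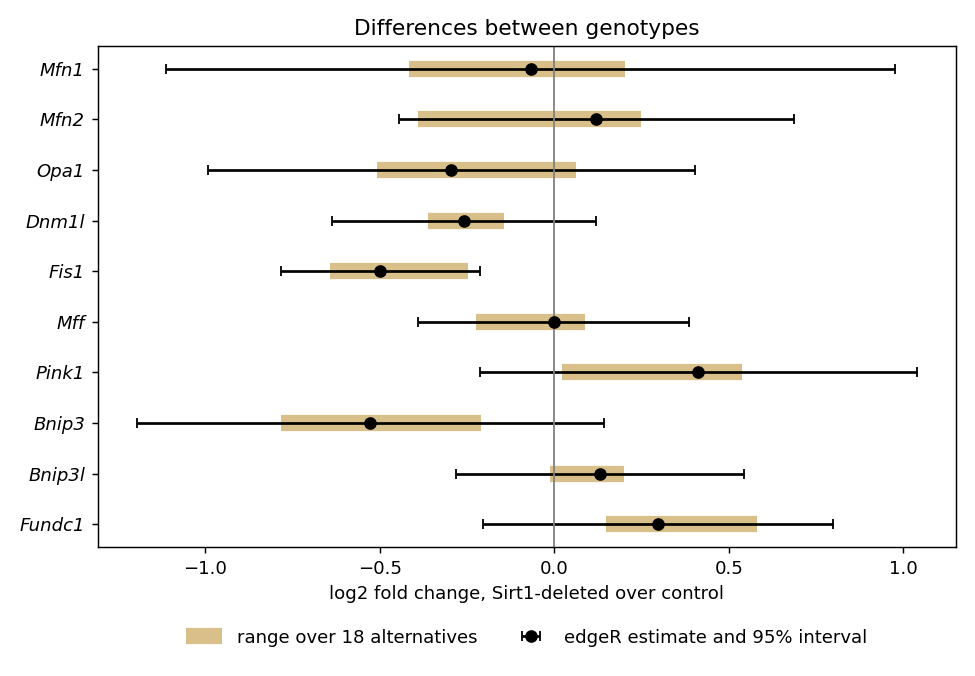
Log2 fold changes of the 10 genes, Sirt1-deleted over control (horizontal axis), with the edgeR estimate (points), its 95% interval (black bars) and the range of estimates over 18 alternative analyses (tan bars). The 95% interval for Fis1 (-0.78 to -0.21) is the one that does not include 0, and the tan bars of Mfn1, Mfn2, Opa1, Mff and Bnip3l cross 0.

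Scaled by length, the 10 genes spanned a wide range of levels. In CPM per kilobase of merged exons, Fis1 stood at 168 ± 24.2 in Sirt1-deleted libraries and 237 ± 21.7 in controls (SD, n = 4 each). Pink1 followed at 68.2 ± 12.9 and 51.2 ± 17.7, and Mfn1 was the lowest at 2.79 ± 0.51 and 2.92 ± 1.55. Fis1 stood above Pink1, Pink1 above Bnip3l, and Dnm1l above Mff in all 8 libraries. The order was less clear elsewhere. Bnip3l stood above Mfn2 in 5 of the 8 libraries, and Fundc1 above Dnm1l and Opa1 above Bnip3 in 6 each. Mfn2 stood above Fundc1, Mff above Opa1, and Bnip3 above Mfn1 in 7 each. Levels per length rest on merged exons of all annotated transcripts, from 1714 bases for Fis1 to 9757 for Mff, so a gene with rarely used exons is set too low.

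**Figure D4:**
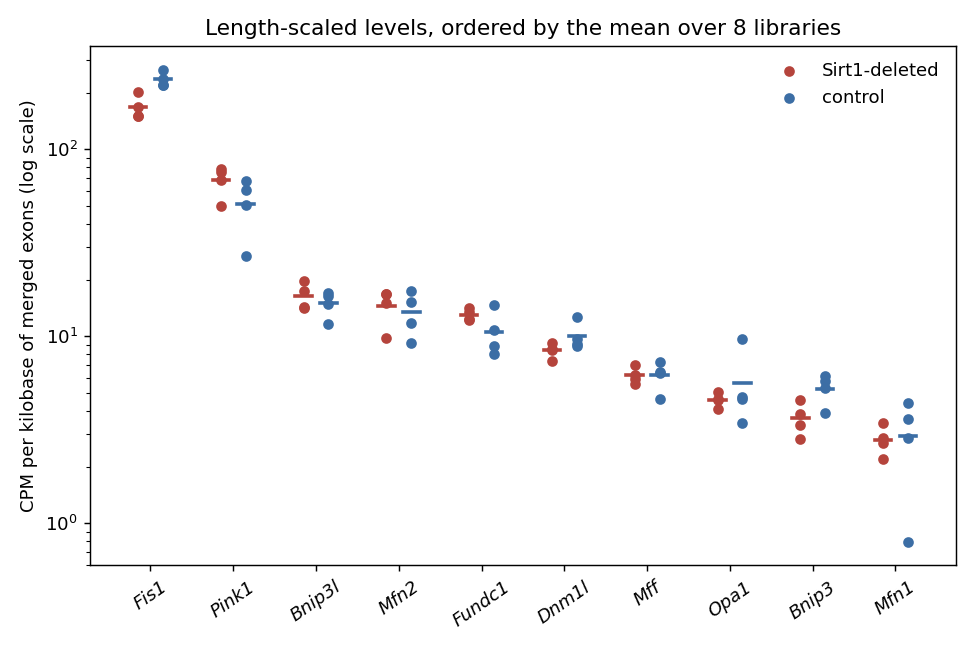
Levels per kilobase of merged exons (vertical axis, CPM per kilobase, log scale) for the 10 genes, ordered by the mean over 8 libraries, with Sirt1-deleted libraries in red on the left and controls in blue on the right, and lines at the group means. Fis1 and Pink1 stand above the other 8 genes in every library, and Mfn1 in control 1 is the lowest value of all (0.795).

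Likeness was searched among the other tested genes that averaged 20 CPM or more, 6793 for Fis1. The gene whose log2 CPM was most like that of Fis1 over the 8 libraries was Timm8b, a small import chaperone of the mitochondrial intermembrane space (r = 0.996). Its log2 fold change was -0.60. For Pink1 it was Man2a2, an enzyme of N-glycan trimming, with a log2 fold change of 0.52 (r = 0.984). For Opa1 it was Ncbp3, an RNA cap-binding protein, and for Mfn2 Tbc1d10c. For Mfn1 it was Arhgef10l, for Dnm1l Med29, for Mff Rpa3, for Bnip3 Dnttip1, for Bnip3l Pus7 and for Fundc1 Mrps6. The measure was Pearson's r over both genotypes together, given as a description, and r was over 0.9 for 355 genes with Fis1 and for 3 with Bnip3l.

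Of 89 related genes tested in 4 lists, edgeR called 0, where it called 0.0846% of all genes. DESeq2 called 10 of the 89 and limma-voom 11, where they called 11.3% and 8.03% of the genes they tested. The list of mitophagy partners held 32 genes, all tested. The median log2 fold change was -0.05, with 15 positive and 17 negative values. At an unadjusted p under 0.05, 4 were higher and 6 lower, where 7.55% of all genes were higher and 8.6% lower. Usp8, a deubiquitinase known for its work on endosomes, had 40.3, 46.4, 49.5 and 48.7 CPM in Sirt1-deleted libraries and 22.3, 18.6, 29.7 and 28.7 CPM in controls, without overlap. Its log2 fold change was 0.90 ± 0.20 (SE, edgeR adjusted p = 0.101). Tomm20, an import receptor of the outer membrane, had 113, 90.5, 82.0 and 82.1 CPM in Sirt1-deleted libraries and 121, 163, 142 and 125 CPM in controls. Its log2 fold change was -0.58 ± 0.15 (SE, edgeR adjusted p = 0.138), and like Fis1 it was highest in replicate 1 among the Sirt1-deleted libraries.

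Of 27 partners of fusion and fission, 26 were tested, as Gdap1 had at most 2 counts. Their median log2 fold change was -0.06, with 11 positive and 15 negative values, and 1 was higher and 5 lower at an unadjusted p under 0.05, against the same 7.55% and 8.6% of all genes. Phb2, a prohibitin of the inner membrane, had 376, 361, 361 and 340 CPM in Sirt1-deleted libraries and 419, 683, 609 and 502 CPM in controls (log2 fold change -0.62 ± 0.15, SE, edgeR adjusted p = 0.119). Stoml2, which binds prohibitins, had 165 to 193 CPM in Sirt1-deleted libraries and 228 to 237 CPM in controls (log2 fold change -0.37). Samm50, a part of the outer-membrane sorting machinery, had 295 to 354 CPM and 374 to 409 CPM (log2 fold change -0.30, edgeR adjusted p = 0.181). The groups did not overlap for any of these 3 genes, which were named for the smallest p in the list. Of the 26 genes tested, groups did not overlap for 1 higher and 5 lower. Over all genes, 6.64% and 6.44% showed these patterns.

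**Figure D5:**
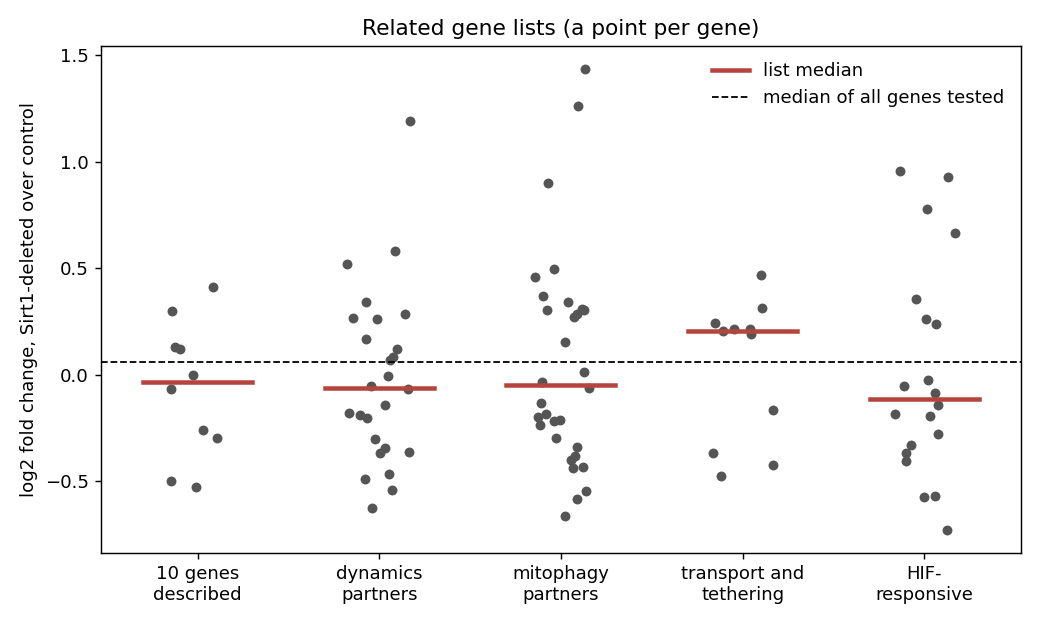
Log2 fold changes, Sirt1-deleted over control (vertical axis), of the 10 genes described and of 4 lists of related genes, with a point per gene, red lines at list medians and a dashed line at the median of all genes tested (0.06). A gene of the mitophagy list that is not reported here is not drawn. List medians run from -0.11 for HIF-responsive genes to 0.21 for transport and tethering genes, within a spread of single genes from -0.73 to 1.44.

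For the 11 genes of mitochondrial transport and tethering the median was 0.21 on the log2 scale (7 positive and 4 negative values). Vdac2, an outer-membrane channel, had 179, 185, 167 and 179 CPM in Sirt1-deleted libraries and 236, 234, 233 and 284 CPM in controls, without overlap (log2 fold change -0.48 ± 0.10, SE, edgeR adjusted p = 0.101). Its paralogue Vdac1 had 180 to 226 CPM in Sirt1-deleted libraries and 143 to 213 CPM in controls (log2 fold change 0.19). Rmdn3, a tether to the endoplasmic reticulum, had 26.3 to 49.5 CPM and 51.5 to 54.6 CPM (log2 fold change -0.42, edgeR adjusted p = 0.343).

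For the 20 HIF-responsive genes, a class to which Bnip3 belongs, the median was -0.11 on the log2 scale (7 positive and 13 negative values). Ldha, lactate dehydrogenase A, had 2696 to 3442 CPM in Sirt1-deleted libraries and 3575 to 4331 CPM in controls (log2 fold change -0.40). The stress-responsive gene Ndrg1 had 41.8, 114, 81.6 and 102 CPM in Sirt1-deleted libraries and 36.0, 52.9, 35.4 and 53.6 CPM in controls (log2 fold change 0.93, edgeR adjusted p = 0.198). The glucose transporter gene Slc2a3 had 59.7 to 74.3 CPM and 17.5 to 57.1 CPM (log2 fold change 0.96, edgeR adjusted p = 0.216). Over all 4 lists, 7 of the 89 genes tested were higher and 14 lower at an unadjusted p under 0.05 with edgeR, where 7.55% of all genes were higher and 8.6% lower. Groups did not overlap for 5 higher and 11 lower genes, where 6.64% and 6.44% of all genes showed these patterns.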

How the data were processed

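The tools listed in the submitters' processing notes are STAR 2.5.3, HTSeq 0.9.1, Trim Galore 0.5.0, bcl2fastq 2.18.0.12 and DESeq2 1.20.0, and the build listed is GRCm38. Which annotation release was counted, and with what strand setting, is not given in the sources used here. Per the labels' protocols, cDNA came from a SMARTer Ultra Low Input kit and went into Nextera XT libraries. This preparation has no molecular identifiers, so PCR copies are counted, and it does not mark strand. Where exons of Dnm1l, Mff and Bnip3 overlap those of genes annotated on the opposite strand, reads of the 2 cannot be told apart. The overlapping gene had 0 to 15 counts for Mff (C430014B12Rik) and 0 for Bnip3 (Gm45507), and that of Dnm1l (Gm49521) had no counts listed. Reads that fell on both genes may be missing from either count. The deposited values are whole-number read counts per gene, not normalised. The 5 summary rows that name no gene, 33.2 to 40.6% of a library's records, were left out of library sizes and tests.

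Columns were matched to samples by title. The column of control 4 differs from its title in the last letter, and its first part is found in no other title. The labels number no replicates, so numbers follow the order of deposit and pair no samples. Replicates are biological per the series' description. No pair of libraries of a genotype agreed within counting noise. Titles start with 3 or 4 in Sirt1-deleted samples and with 1 or 2 in controls, and whatever that digit stands for cannot be told apart from genotype.

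Symbols were found for 99.1% of identifiers. Coordinates and exon lengths are from GENCODE M21 (GRCm38). Genes were tested with edgeR 4.0.16 (R 4.3.3): TMM scaling, filterByExpr, robust quasi-likelihood F test, two-sided, no covariate. CPM are counts over TMM-scaled library sizes, and a standard error is the size of the log2 fold change divided by the root of F. Positive log2 fold changes mean higher in Sirt1-deleted libraries. The biological coefficient of variation was 0.653. Alternatives used DESeq2 1.42.0, limma 3.58.1 (voom with quality weights), other scaling and filters, covariates and left-out libraries. The code was tested on simulated data. The 10 genes and the lists were chosen with earlier results of these data known. By rule, the 3 genes of smallest p in each list were named, together with the gene most like each of the 10. A gene that this rule names is not reported here.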

Additional observations from a re-analysis of the deposited data

Results flagged for a closer look

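None of the 10 genes had a library set apart from its group by Dixon's criterion, in which the gap to the nearest library is set against the group's whole range. Of 42 groups of 4 libraries checked, over the 10 genes, 8 marker sums and 3 library measures, 2 exceeded it, where chance gives about 1 in 20. The summed T and NK cell markers were 609 CPM in control 3, below the other 3 controls. The summed megakaryocyte markers were 286 CPM in control 1, above the other 3 controls.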

How the results depend on the processing

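The count of genes called over the whole table depended on the tool and the libraries. It was 12 with edgeR, 1129 with DESeq2, 1139 with limma-voom, and 0 to 451 with 1 library left out, the highest without Sirt1-deleted 1. It was 311 without control 2 and Sirt1-deleted 1 together, the pair in which the fewest genes were detected, 1 in titles starting with 2 and 4, 5 once trends with length and GC content were taken out, and 0 with detected genes or the non-unique share as a covariate. Of the 10 genes, 1 (Fis1) was called with DESeq2, with limma-voom, without Sirt1-deleted 1 and without that pair, and 0 to 1 with 1 library left out. The median over the 10 was -0.03 in the main analysis and 0.056 with limma-voom, where the median of all genes was 0.17, against 0.06 with edgeR. It was 0.052 without that pair, 0.042 in titles starting with 2 and 4, -0.15 once those trends were taken out, and -0.17 to 0.043 with 1 library left out. Of the related genes, 10 were called with DESeq2, 11 with limma-voom, 2 without that pair and 0 to 3 with 1 library left out, and their median of -0.05 ran from -0.15 to -0.011 with 1 library left out.

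Fis1 (-0.64 to -0.25), Bnip3 (-0.78 to -0.21), Dnm1l (-0.36 to -0.14), Pink1 (0.02 to 0.54) and Fundc1 (0.15 to 0.58) kept their sign in all 18 alternatives. The sign turned for Mfn1 with limma-voom (0.20), without that pair (0.048), in titles starting with 2 and 4 (0.014) and with detected genes as a covariate (0.15). It turned for Mfn2 with detected genes (-0.11) or the non-unique share (-0.39) as a covariate and once those trends were taken out (-0.042), and for Opa1 without that pair (0.055). It turned for Mff without a filter (0.020), in titles starting with 2 and 4 (0.070) and with the non-unique share (0.089), and for Bnip3l with the non-unique share (-0.0078). With 1 library left out, Mfn1 ran from -0.42 to 0.17, Mfn2 from -0.058 to 0.24, Opa1 from -0.51 to 0.063, Mff from -0.16 to 0.087 and Bnip3l from -0.010 to 0.16. The causes were not tested. The non-unique share was added as a covariate after seeing the data. The labels number no replicates, but titles carry a letter that occurs once in each genotype, and its meaning is not given. Libraries that share a letter did not deviate together throughout (r of -0.086 to 0.255 across genes, where 2 of the 4 Sirt1-deleted libraries correlated best with the control of their own letter). With that letter as a replicate block, also added after seeing the data, edgeR called 0 genes. The median over the 10 was then 0.069, Mfn1 stood at 0.14, Mff at 0.010 and Fis1, not called, at -0.50. Mfn1 (113 to 750) and Bnip3 (185 to 390) had the lowest counts of the 10, and whether depth sets their spread was not tested.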
